A study of Mus musculus with 2 samples.

Results

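Asic2, Grik4, Atp2b2 and Kcnc1 encode proteins that move ions across the membrane of nerve cells, and they were examined here for candidate 5-formylcytosine (5fC) in mouse embryonic stem cells. They are 4 of the 21887 protein-coding genes in the RefSeq table of GRCm38 (the mm10 build), and were picked with the site lists already known, so that their sites, densities and levels are a description with no test. Sites were counted in the gene span with 2 kb on either side, in any sequence context and on either strand. By that rule the genes held 55 of the 28569 cytosines listed in replicate 1 and 58 of the 29650 listed in replicate 2, which came to 85 distinct positions.

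The cells were described in the labels only as embryonic stem cells of the mouse, with no line, strain, genotype or treatment, and the 2 libraries of genomic DNA formed 1 group without a control library. Nothing in the labels said that they came from separate cultures. In CLED-seq, the method used, sheared DNA is reacted with a biotin reagent that binds the formyl group, the tagged fragments are pulled down on streptavidin beads, and the deaminase A3A then converts cytosines that carry no tag. A cytosine still read as C in the product is a candidate 5fC. The level of a site is the share of its reads that kept the C, among captured fragments. Only sites with at least 30 reads and an adjusted p below 0.05 in the authors' test were listed, and what share of each gene was covered at that depth is not known. As the libraries hold DNA, no marker transcript could be used to check the cell type, and expression of the 4 genes was not measured.

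5fC arises when TET enzymes oxidise methylated cytosine stepwise, and it can be cut out by the glycosylase TDG and replaced by an unmodified base. In embryonic stem cells methylation lies mostly at CG dinucleotides, with some at CA. Asic2 encodes a subunit of the acid-sensing ion channels, which pass sodium when the fluid outside the cell turns acidic. Grik4 encodes a kainate receptor subunit, a glutamate-gated cation channel that assembles with other subunits of its family. Atp2b2 encodes the plasma membrane calcium pump PMCA2, which expels calcium from neurons and from the hair cells of the inner ear. Kcnc1 encodes Kv3.1, a voltage-gated potassium channel known from fast-spiking neurons. These are genes of differentiated nerve cells, and no count here bears on their activity in stem cells.

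A pair of the 85 positions fell inside a promoter window of the RefSeq promoter table (GRCm38.p6), which runs from 250 bases before to 50 after a listed transcription start site, and both were CG. Of all 46677 distinct sites of the 2 lists, 1.90% lay in such a window, so no excess is read from the pair. The sequences around the pair are shown because they place the call at the 5′ end of a transcript. Each is printed 5′ to 3′ on the strand of the gene, with the called CG dinucleotide in capitals. In both cases the listed C lay on the other strand, opposite the G in capitals.
Kcnc1, chr7:46396488-46396517, plus strand: ccgcgggctggacgcggaccgcgCGaacga
Atp2b2, chr6:113891540-113891679, minus strand: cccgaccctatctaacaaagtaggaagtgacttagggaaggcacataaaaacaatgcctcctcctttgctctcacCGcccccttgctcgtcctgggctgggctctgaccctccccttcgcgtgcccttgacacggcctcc
The Kcnc1 site, at chromosome 7 position 46396512, lay 44 bases after the listed start site. All 39 reads kept the C in replicate 1 and all 39 in replicate 2, a level of 100% with a 95% Wilson interval of 91.0 to 100% in each. It was the only site of the 4 genes at which no read lost the C, and the only CG among those listed in both replicates. The 30 bases shown hold 8 CG dinucleotides, and the whole 300-base window holds 41 and has a GC content of 74.7%, against medians of 7 CG dinucleotides and 52.7% over all 32851 windows. Only the CG in capitals was listed.

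The Atp2b2 site, at chromosome 6 position 113891603, lay 151010 bp into the gene, 64 bases before a listed start site inside it. It was listed in replicate 2 alone, where 15 of 43 reads kept the C (34.9%, Wilson interval 22.4 to 49.8%). The 140 bases shown hold 6 CG dinucleotides, and its window of 300 holds 12. Over the whole table, 898 of the windows (2.73%) held a listed cytosine, and CG made up 24.9% of the 887 distinct sites in them (Wilson interval 22.2 to 27.9%), against 7.96% of all 46677 distinct sites. The other 5 promoter windows of the 4 genes held no listed site. Among these, the windows of Grik4, with 42 CG dinucleotides, and of the most upstream Atp2b2 start site, with 27, were also rich in CG. The nearest sites lay 1782 and 2189 bp before their start sites. Asic2 has 2 windows: the nearest site lay 16129 bp after the upstream start site and 959 bp after the downstream one.

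Atp2b2 carried the densest sites of the long genes. The gene spans 298783 bp on the minus strand of chromosome 6 (113743831 to 114042613). It held 18 sites in replicate 1 and 21 in replicate 2, or 5.94 and 6.94 per 100 kb, against chromosome means of 1.01 and 1.07. That is 5.89 and 6.48 times the mean, and the exact Poisson intervals of the gene's density (3.52 to 9.40 and 4.29 to 10.6 per 100 kb, counting error only) lay above the chromosome mean in both replicates. The 4 genes were picked on these lists and the replicates share sites, so these intervals and those given below are no test. The mean ratio of Atp2b2 was 6.19. With sites of at least 40 reads alone it was 11.3, which rests on 6 and 7 sites. Such deep sites made up 33.3% of its sites in each replicate, against 19.6% and 19.5% of the listed sites outside the 4 genes. Those 2 shares lay inside the Wilson intervals of Atp2b2 (16.3 to 56.3% and 17.2 to 54.6%). Among the 339 protein-coding genes of at least 40 kb on chromosome 6, Atp2b2 ranked as number 5 by mean density. The 3 genes of that chromosome nearest to it in length, Jazf1, Nxph1 and Dync1i1, held 4, 1 and 5 sites in replicate 1 and 4, 1 and 4 in replicate 2.

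Kcnc1 is short (42488 bp, plus strand of chromosome 7, 46396219 to 46438706), and its density rested on few sites. Replicate 1 listed 4 sites and replicate 2 listed 1, which gave 8.60 and 2.15 per 100 kb against chromosome means of 1.17 and 1.27. The ratio was 7.34 in replicate 1 and 1.69 in replicate 2, so that replicate 1 alone made up most of the mean ratio of 4.52. The Poisson intervals were wide (2.34 to 22.0 and 0.0545 to 11.99 per 100 kb), and in replicate 2 the interval included the chromosome mean. Its rank was 10 of 321 genes of at least 40 kb on chromosome 7.

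Grik4 (426819 bp, minus strand of chromosome 9, 42518182 to 42945000) held 12 and 13 sites, or 2.79 and 3.02 per 100 kb, which is 1.96 and 2.19 times the chromosome means of 1.42 and 1.38. The Poisson intervals (1.44 to 4.87 and 1.61 to 5.16 per 100 kb) began just above those means, and the gene ranked as number 63 of 355. With sites of at least 40 reads alone, its mean ratio was 0.661, below the chromosome mean, and that of Kcnc1 was 0, since none of their sites but 2 in Grik4 had that depth. Asic2 (1088234 bp, minus strand of chromosome 11, 80880163 to 81968396) had the most sites, 21 and 23, but stood near its chromosome: 1.92 and 2.11 per 100 kb against 1.69 and 1.74, ratios of 1.14 and 1.21. Both of its Poisson intervals (1.19 to 2.94 and 1.33 to 3.16 per 100 kb) included the chromosome mean, and it ranked as number 137 of 345. All 4 genes thus had mean ratios above 1. Over the 6007 protein-coding genes of at least 40 kb the median ratio was 1.01 and 50.3% lay above 1. The 4 were chosen on these lists, so nothing is read from that count. Read coverage of the genes was not known, and its part in these densities was not tested.

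**Figure D1:**
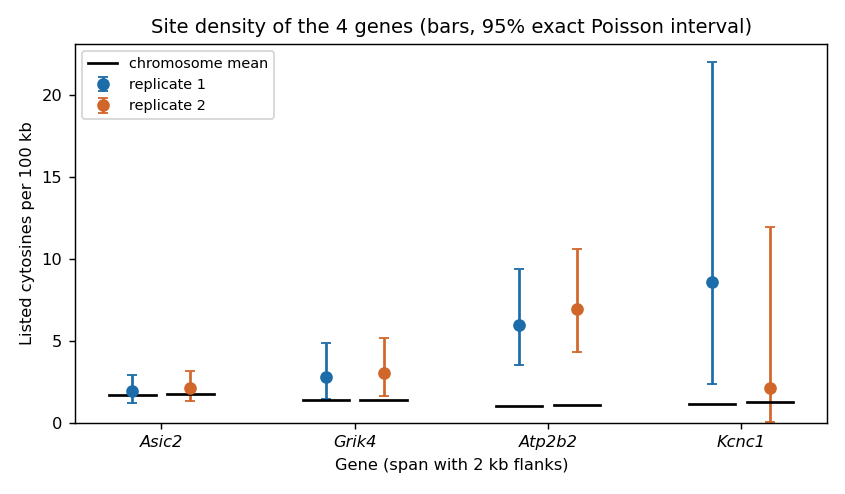
Listed cytosines per 100 kb (y axis) in the span of each gene with 2 kb flanks (x axis), for replicates 1 and 2, with 95% exact Poisson intervals of the counts as bars and the mean of the gene's chromosome as black lines. Atp2b2 lies above its chromosome mean in both replicates, at 5.94 and 6.94, Asic2 near it, and the Kcnc1 values of 8.60 and 2.15 have the widest intervals.

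Of the 85 positions, 28 were listed in both replicates: 11 in Asic2, 8 in Grik4, 8 in Atp2b2 and 1 in Kcnc1. These make 50.9% of the genes' replicate 1 sites (95% Wilson limits 38.1 and 63.6%) and 48.3% of their replicate 2 sites (35.9 and 60.8%). Over the whole lists 40.4% of the sites of replicate 1 and 38.9% of those of replicate 2 were listed again, and the first value lay within the genes' interval, as did the second. Genes with a site listed in both replicates made up 22.2% of all protein-coding genes and 42.8% of those of at least 40 kb; the 4 genes were chosen with this count known. Read counts were identical in both replicates at 20 of the 28 shared sites, and at 70.6% of the 11542 shared sites of the whole lists. Comparing the counts of the replicates gave a chi-square per degree of freedom of 0.00830 at the genes' sites and 0.0611 over all shared sites, where independent counts give about 1. This is less than sampling noise, so the replicates were treated as 1 sample at shared sites and values there are given with no SD. An SD of the 2 replicates serves only as a yardstick in the closing section. Each shared site was tested with a two-sided Fisher's exact test, adjusted over all shared sites by Benjamini-Hochberg: 0 of the 28 differed between replicates, and 0 had an unadjusted p under 0.05. Over all shared sites 0.026% were called (3 sites), and 0.234% had an unadjusted p under 0.05. Counts this close could hardly differ in the test, so it says nothing on how independent libraries would compare. The largest gap among the 28 was 3.31 points, at an Atp2b2 site where 13 of 45 and 11 of 43 reads kept the C (p = 0.813, adjusted p = 1, Fisher's exact test).

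The other 57 positions were listed in 1 replicate alone, 27 in replicate 1 and 30 in replicate 2. In 8 pairs, a site of replicate 1 had a site of replicate 2 within 120 bp whose counts of kept and lost reads each matched within 1 read. These are 29.6% of the unshared sites of replicate 1 and 26.7% of those of replicate 2, against 20.8% and 19.5% over the whole lists. Atp2b2 had 6 of the pairs, at distances of 6, 67, 80, 82, 103 and 117 bp, and Asic2 had 2, each at 115 bp. Strand was not matched. The Atp2b2 pairs at 67 and 117 bp and the Asic2 pair at positions 81151944 and 81151829 lay on opposite strands. In Asic2, positions 81210598 (replicate 1) and 81210483 (replicate 2) both had 30 of 40 reads that kept the C. In Atp2b2, positions 113884664 and 113884746 both had 21 of 32. Both counts were equal in 5 of the 8 pairs, and in the other 3 the kept count, the lost count or both differed by 1 read. Whether each pair reflects the same molecules was not tested.

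Levels were spread widely within each long gene. In Asic2 they ran from 21.6% to 96.9% in replicate 1 (median 54.8%) and from 21.6% to 87.2% in replicate 2 (median 42.4%). In Grik4 they ran from 22.6% to 86.7% (median 30.4%) and from 23.3% to 87.1% (median 39.4%). In Atp2b2 they ran from 20% to 94.1% (median 34.9%) and from 20.5% to 94.1% (median 34.9%). The ranges of the 3 long genes overlapped almost entirely. Kcnc1 stood at 41.0%, 83.3%, 90.9% and 100% in replicate 1 and at 100% at its single site in replicate 2. The sites of all 4 genes together had median levels of 44.4% (replicate 1) and 40.01% (replicate 2), against 46.7% and 46.2% at the other listed sites. Levels of at least 80% were found at 10 of 55 and 8 of 58 sites (18.2% and 13.8%, Wilson intervals 10.2 to 30.3% and 7.16 to 24.9%), and the shares of 22.0% and 21.6% at the other listed sites lay inside both intervals. Median depth was 34 reads in the 4 genes and at the other sites, in both replicates. That depth leaves single levels loosely known: 17 of 32 reads at Grik4 position 42632566 (53.1%, the same in both replicates) had a Wilson interval of 36.4 to 69.1%.

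Outside CG, levels above 80% in both replicates were found at 2 Atp2b2 sites and 2 Grik4 sites. At Atp2b2 position 113986760, 55.9 kb from the 5′ end, each replicate had 32 of 34 reads with the C (94.1%, Wilson interval 80.9 to 98.4%). At position 114011668 it was 29 of 33 in both (87.9%). The RNA gene Gm15083 overlaps Atp2b2 at its 5′ end, and 8 Atp2b2 positions lie in both genes, the second of these among them. Another 2, in the flank of Atp2b2, lie in Gm15083. Other genes also overlap 3 Asic2 positions, among them 81881115 (5530401A14Rik and Gm46254), and 1 Grik4 position, 42674357 (Gm36590). In Grik4, 28 of 34 reads kept the C in both replicates at position 42526633 (82.4%), near the 3′ end. At Grik4 position 42636661 the counts were 26 of 30 and 27 of 31 (86.7% and 87.1%). The highest level in Asic2 was listed in replicate 1 alone, at position 81426270, with 31 of 32 reads (96.9%, 84.3 to 99.4%). Among Asic2 sites of both replicates, position 81630290 was highest, with 27 of 34 in each (79.4%), and position 81881115 was lowest, with 8 of 37 in each (21.6%). The deepest sites of Grik4, with 73 and 61 reads at positions 42674357 and 42833123, were both in replicate 2 alone, at 30.1% and 26.2%. The deepest of Atp2b2 were in replicate 1 alone, with 65 and 53 reads at positions 113769563 and 113746655, at 20% and 24.5%.

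**Figure D2:**
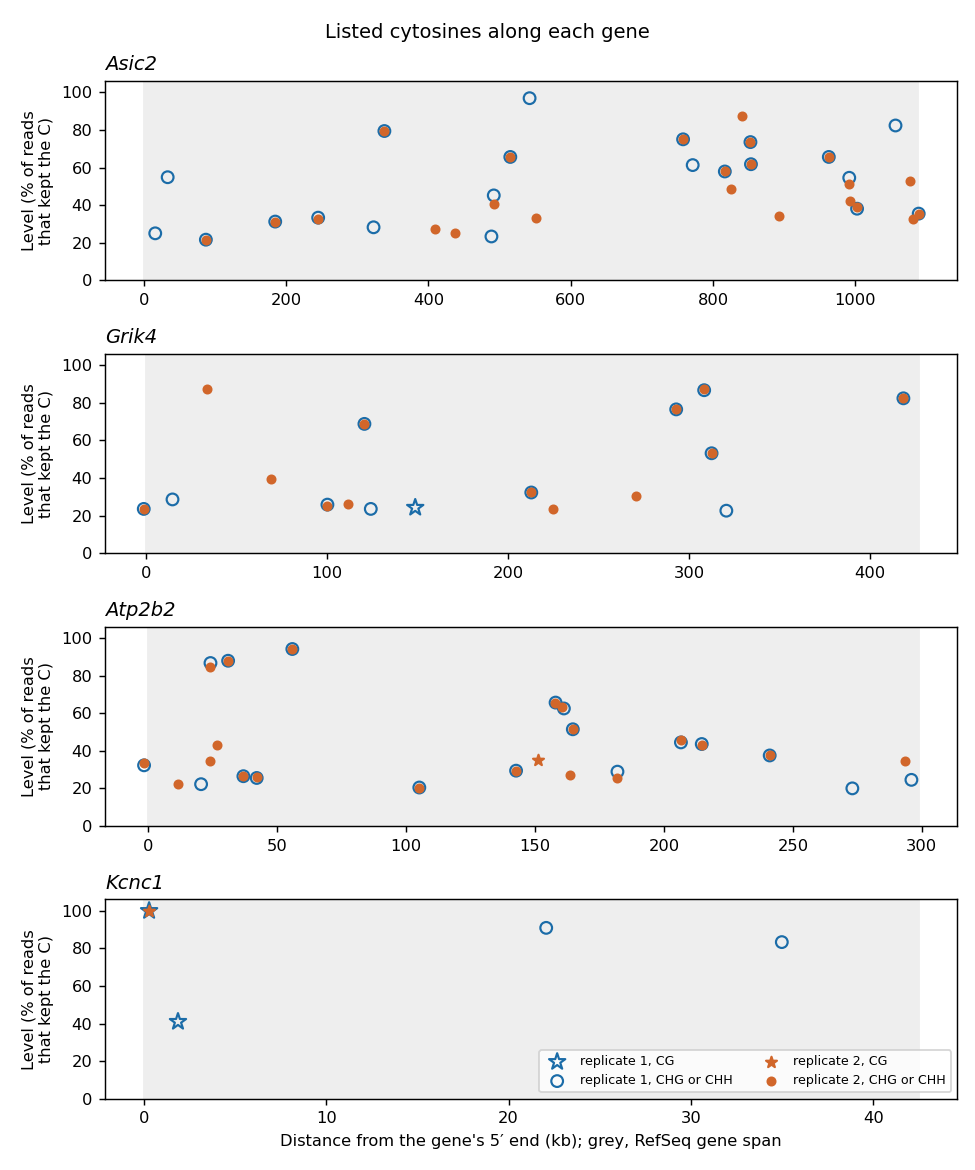
Level of each listed cytosine (y axis, % of its reads that kept the C) against its distance from the 5′ end of the gene in kb (x axis), 1 panel per gene, with open symbols for replicate 1, filled symbols for replicate 2, stars for CG and circles for CHG or CHH. Filled symbols inside open ones are sites listed in both replicates or close pairs of equal level. High and low levels both occur in each of the 3 long genes, but not evenly mixed along them. In Atp2b2, no level beyond 164719 bp from the 5′ end is above 45.7%. The Kcnc1 CG at 100% stands at the 5′ end.

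Sites were spread along the genes with long empty stretches. With each span cut into 4 equal parts from 5′ to 3′, Asic2 had 5, 9, 4 and 14 positions, and 0 fell between 552 and 758 kb from its 5′ end, a stretch of 206 kb. Grik4 held 4, 5, 5 and 2, with its longest empty stretch, 97.8 kb, between 321 and 418 kb. Atp2b2 held 11, 2, 11 and 5, so that its positions gathered near the 5′ end and past the middle, with 49.2 kb without a site between them. The median gap between neighbouring positions was 20.4 kb in Asic2, 19.1 kb in Grik4 and 4.79 kb in Atp2b2. These counts and gaps pool the positions of both replicates, so each close pair described above counts as 2 positions. Most of those pairs lay in Atp2b2, and its values were not corrected for them. Of the 85 positions, 4 lay in the flanks, and 42 lay on the strand of the gene they were counted for. By gene, that was 15 of 33 in Asic2, 12 of 17 in Grik4, 14 of 31 in Atp2b2 and 1 of 4 in Kcnc1. The first listed cytosine beyond the flank lay 2214 bp past the edge at Atp2b2 and 2570 bp past it at Kcnc1, and the nearest inside the edge lay 227 bp from it, at Atp2b2. Exons and introns were not annotated here.

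Most sites of the 4 genes lay outside CG. Of the 85 positions 4 were CG, 18 CHG and 63 CHH (H is any base but G). Replicate 1 had 3 CG among 55 sites (5.45%, Wilson limits 1.87 and 14.9%), replicate 2 had 2 among 58 (3.45%, 0.951 and 11.7%), and the shares at the other listed sites, 8.01% and 8.21%, lay inside both intervals. Of the 4 CG positions, 2 were in Kcnc1, 1 in Atp2b2 and 1 in Grik4, and 0 of the 33 Asic2 positions were CG. The second Kcnc1 CG, at position 46398095, had 16 of 39 reads (41.0%), and the Grik4 CG, at position 42796232, had 8 of 33 (24.2%), each in replicate 1 alone. By the base after the C, CA made up 34.5% and 32.8%, CC 30.9% and 36.2%, and CT 29.1% and 27.6% of the sites. All 6 of these shares had Wilson intervals that included the share at the other listed sites. Atp2b2 held few CT sites, 2 of 18 and 2 of 21 (11.1% and 9.52%), with the share of 31.0% at the other listed sites of replicate 1 inside its interval (3.10 to 32.8%) and that of 30.7% in replicate 2 above it (2.65 to 28.9%). This low CT share was noticed after its values were seen. Cytosine that escaped deamination could not be told apart from 5fC, in CG or elsewhere.

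**Figure D3:**
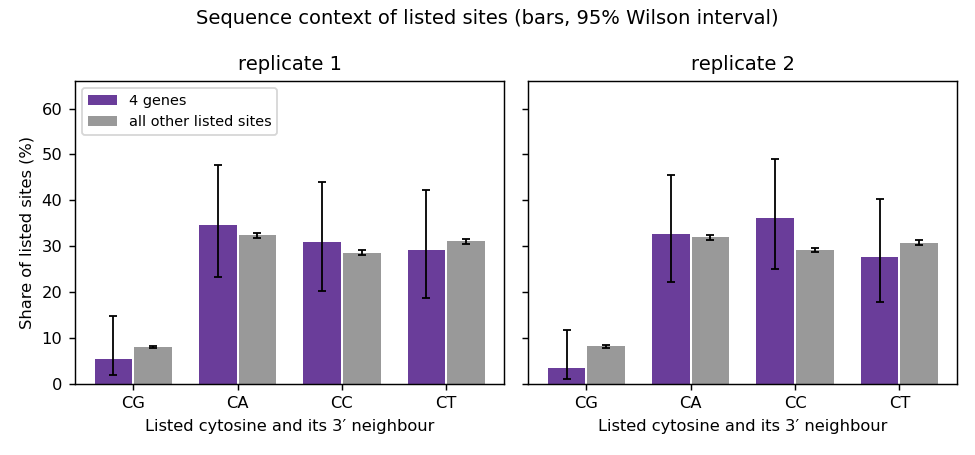
Share of listed sites (y axis, %) by the base that follows the cytosine (x axis), for the 4 genes and all other listed sites, in replicates 1 and 2, with 95% Wilson intervals as bars. The intervals of the 4 genes include the share at the other sites in every group, and the CG shares are 5.45% and 3.45%.

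The closest relatives of the 4 genes were read from a list of channel and pump genes, of which 18 are reported. Of these 18, 15 held a listed site, 10 held a site of both replicates and 10 lay above their chromosome's mean, with a median ratio of 1.36. Of all protein-coding genes, 47.9% held a site, 22.2% held a shared one and 39.9% lay above the mean, and their median ratio was 0. Of the 6007 that reach 40 kb, 42.8% held a shared site and 50.3% lay above the mean, with a median ratio of 1.01. The relatives run from 4.39 to 696 kb and were not matched in length to either set, so no excess is read from their counts. Among the plasma membrane calcium pumps, Atp2b1 (ratio 1.27), Atp2b3 (4.73) and Atp2b4 (1.60) held 1 or 2 sites in each replicate. Their mean densities were 1.30, 1.34 and 1.47 per 100 kb, and the higher ratio of Atp2b3 follows from the lower mean of its chromosome. Atp2b3 on chromosome X held a site at which 30 of 34 reads kept the C in both replicates (88.2%). A shared Atp2b1 site had 11 of 30 in each (36.7%).

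Of the kainate receptor genes, Grik3, with 7 and 8 sites, had a ratio of 2.74, while Grik1, Grik2 and Grik5 stood at 0.257, 0.420 and 0.586. Grik1 and Grik2 are long genes (395 and 696 kb) with 1 to 4 sites each. A Grik3 site at chromosome 4 position 125658113 kept the C in 31 of 32 and 31 of 31 reads (96.9% and 100%). Of the acid-sensing channel genes, Asic4 (5.88), Asic1 (3.71) and Asic5 (1.45) held 0 to 2 sites in each replicate, and Asic3 had no site. Of the Kv3 potassium channel genes on the list, Kcnc2 stood at 0.734 with 1 and 2 sites, and Kcnc4 had no site.

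The calcium pumps of internal membranes also varied. Atp2c2, a pump of the secretory pathway, held 7 sites in replicate 1 and 2 in replicate 2 (ratio 4.33). Atp2a3 and Atp2a2, pumps of the endoplasmic reticulum, had ratios of 3.25 and 2.90. Atp2c1 stood at 0.628, with a site of 26 of 34 and 27 of 35 reads, and Atp2a1 had no site. For each of the 4 genes, the 3 protein-coding genes of its chromosome nearest to it in length were mixed as well. For Asic2, these were far from its length in part, with Slit3 at 587 kb. Tenm2 held 10 sites in each replicate (ratio 0.473), Slit3 12 and 9 (1.04) and Sgcd 2 and 4 (0.171). For Grik4, Ephb1, Tln2 and Maml2 had ratios of 0.737, 0.679 and 1.37, and for Kcnc1, Abhd17c, Zfp607a and Pdilt had 3.52, 2.64 and 0. Ratios of the short genes rest on so few sites that they cannot be ordered.

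**Figure D4:**
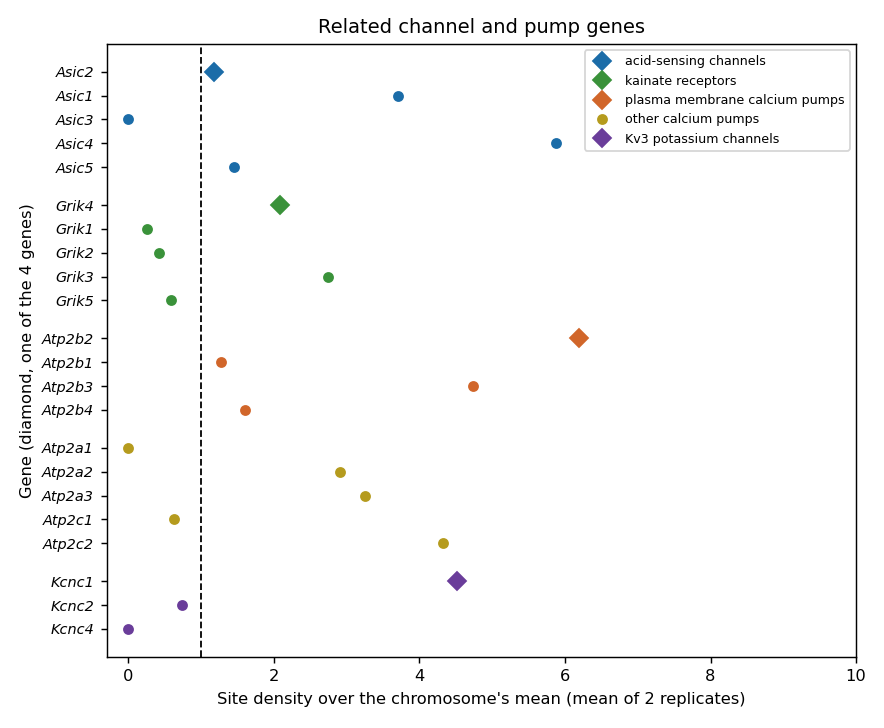
Site density of each gene over the mean of its chromosome (x axis, mean of the 2 replicates) for the 4 genes (diamonds) and 18 related channel and pump genes (circles), grouped by family along the y axis, with the chromosome mean as a dashed line at 1. Atp2b2 lies at 6.19 and Asic2 close to the line, at 1.17, and the points of genes with few sites carry no order.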

How the data were processed

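Captured and deaminated genomic DNA of 2 libraries was read from 1 table per library. For each listed cytosine the authors deposited raw counts of reads that kept and lost the C and their sum, per the file headers. Each site also has a deposited p-value and its adjustment by Holm and by Benjamini-Hochberg, as the headers name them. Per the submitters' processing notes, the build was mm10, and Bismark 0.23.1 with Bowtie2 2.4.5, SAMtools, FastQC 0.11.9 and cutadapt 4.1 are listed without role or order. The sources used here do not say whether duplicate reads were removed.

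The context given at listed sites in RefSeq promoter windows was checked against the window sequence 1006 times and matched in all 1006. These windows held 887 distinct sites, so some sites were checked more than once. Chromosome means were taken up to where the last annotated gene ends. Gene strand came from the promoter table. Intervals are 95% Wilson (shares) or exact Poisson (counts of sites) and, since reads amplified by PCR are not independent molecules, cover counting error only. Fisher's exact test ran over all 11542 shared sites and was tried on simulated data in which the counts of the replicates were independent. The real counts were closer to each other than independent counts would be, so that trial does not carry over to them. The members and lists were chosen with earlier results of these data known. Named were the 4 genes with their shared or highest sites, relatives with a shared site, and the 3 protein-coding genes of the chromosome nearest in length; other named sites and relatives were chosen after their values were seen. A gene of the planned list of relatives is not reported here, and counts over relatives leave it out. Genes of at least 40 kb were ranked by a limit set after the data were seen. Python 3.11.15, numpy 2.4.6, pandas 2.3.3, scipy 1.17.1 and matplotlib 3.10.9 were used.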

Additional observations from a re-analysis of the deposited data

How the results depend on the processing

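Of 48 alternative values, 40 stayed within the SD of the 2 replicates or within 1.5 times a count, 6 moved past it and 2 fell from above the chromosome mean to below it. With a depth of at least 40, few sites remained by construction: the density ratio was 0.661 for Grik4, 0 for Kcnc1 and 11.3 for Atp2b2, the median level of the members' sites was 30.7% and 4 sites were shared. With an adjusted p under 0.01, which removes low levels by construction, the median level was 48.8% and the Grik4 ratio 1.66. Outside 13 site-dense windows of 10 kb, of which 4 lie on the chromosome of Grik4 and 0 in the members, the Grik4 ratio was 2.44. Leaving out a replicate gave 1.69 to 7.34 for Kcnc1. The SD of 2 replicates that share sites is a yardstick only, and a value from either of them must lie within it. For Kcnc1 it was 3.99, against a ratio of 4.52. Chromosomes 6 and 7 held no dense window, so the Atp2b2 and Kcnc1 ratios could not change in that setting. The 40 thus include values that could not move, and their number is no measure of robustness. Gene spans without flanks moved none of the values. Levels of at least 20% moved none either, but no member site lay below 20%, so that only chromosome means could change. No paired analysis was possible because there is 1 group.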
